A study of Mus musculus with 24 samples.

Results

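The genes described here are 37 genes of glucose metabolism in the mouse hippocampus, out of 55385 gene identifiers counted in every library. They were chosen by name for their place in glucose uptake, glycolysis, the fate of pyruvate and lactate, the pentose phosphate pathway and the hypoxia-inducible factor (HIF) response. The choice was made with earlier results of these data known. All 37 were matched to a gene identifier through the GENCODE annotation. Bulk RNA of the hippocampus of 24 adult mice of both sexes was sequenced, 4 mice in each of 6 groups. All mice carried floxed Tsc1 alleles (Tsc1f/f) and all received tamoxifen. Controls (Tsc1-Cre-) had no Cre transgene, kept Tsc1 and were taken on day 8 after the start of the injections, so the other days have no control of their own day. Tsc1-Cre+ mice, Tsc1f/f-Tg(Camk2a-CreERT2+), lost Tsc1 and were taken on day 4, 6, 8 or 13 without a drug. Mice of the Tsc1-Cre+-Rap 4 group had the same genotype, were given 10 mg/kg rapamycin daily from day 4 and were taken on day 13. Camk2a drives the CreERT2 recombinase in excitatory forebrain neurons, so glia, vessels and inhibitory neurons of these mice were not the target of the deletion. In such bulk RNA, fewer cells of a type and less RNA per cell cannot be told apart. Time point and cohort cannot be told apart either, because only controls and day 8 mice came from shared series of animal numbers.

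TSC1 is part of the complex that restrains mTORC1, a kinase that couples nutrients and growth factors to growth, and rapamycin inhibits mTORC1. Among the known outputs of mTORC1 is a higher amount of HIF1A protein, a transcription factor that switches on glucose transporters, glycolytic enzymes, lactate dehydrogenase A and the angiogenic factor VEGFA. Glycolysis splits glucose into pyruvate in a preparatory phase that consumes ATP and a payoff phase that yields it. Pyruvate then enters mitochondria through pyruvate dehydrogenase, which the PDK kinases switch off, or becomes lactate, which leaves and enters cells through monocarboxylate transporters. The pentose phosphate pathway branches off at glucose-6-phosphate and supplies NADPH and ribose. In brain, lactate passes between astrocytes, vessels and neurons, and several steps have a neuron-typical and a glia-typical isoenzyme.

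Promoters are shown for 5 genes whose RNA was higher on day 13 and which stand for the main steps, so that the letters HIF is known to read can be seen. The recognition core of HIF is ACGTG, with GCGTG as its other form, and matches on either strand are in capitals. Each line is the 250 bases before a RefSeq start site (GRCm38.p6), 5′ to 3′ in the direction of the gene. None of these 5 windows overlaps an exon annotated in GENCODE M21. Hk2, the inducible hexokinase, is at chr6:82774455-82774704 on the minus strand. Pgk1, which makes the first ATP of the payoff phase, is at chrX:106186850-106187099 on the plus strand. Pgam1, the next enzyme, is at chr19:41911621-41911870 on the plus strand. Ldha, which turns pyruvate into lactate, is at chr7:46845554-46845803 on the plus strand. Slc16a1, the lactate transporter MCT1, is at chr3:104638414-104638663 on the plus strand.
Hk2: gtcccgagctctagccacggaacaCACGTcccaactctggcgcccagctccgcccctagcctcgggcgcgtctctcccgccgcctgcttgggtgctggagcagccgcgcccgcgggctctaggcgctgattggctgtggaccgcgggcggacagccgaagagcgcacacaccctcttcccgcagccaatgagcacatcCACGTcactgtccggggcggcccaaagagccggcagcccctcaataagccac
Pgk1: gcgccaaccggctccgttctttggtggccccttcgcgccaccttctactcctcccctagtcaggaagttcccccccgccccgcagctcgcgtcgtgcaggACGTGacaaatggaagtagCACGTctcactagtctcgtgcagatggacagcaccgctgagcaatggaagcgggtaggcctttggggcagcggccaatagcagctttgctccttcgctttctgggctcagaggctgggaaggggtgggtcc
Pgam1: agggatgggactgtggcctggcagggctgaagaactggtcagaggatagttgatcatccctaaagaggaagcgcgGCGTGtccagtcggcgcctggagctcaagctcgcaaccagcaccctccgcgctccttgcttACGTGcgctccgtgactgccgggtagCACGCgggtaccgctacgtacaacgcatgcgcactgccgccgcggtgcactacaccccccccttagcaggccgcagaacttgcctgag
Ldha: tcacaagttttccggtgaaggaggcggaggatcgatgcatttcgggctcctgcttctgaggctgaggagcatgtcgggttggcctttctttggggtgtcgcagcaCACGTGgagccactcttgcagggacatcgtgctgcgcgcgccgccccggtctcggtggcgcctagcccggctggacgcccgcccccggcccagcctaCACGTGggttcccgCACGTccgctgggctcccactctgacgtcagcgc
Slc16a1: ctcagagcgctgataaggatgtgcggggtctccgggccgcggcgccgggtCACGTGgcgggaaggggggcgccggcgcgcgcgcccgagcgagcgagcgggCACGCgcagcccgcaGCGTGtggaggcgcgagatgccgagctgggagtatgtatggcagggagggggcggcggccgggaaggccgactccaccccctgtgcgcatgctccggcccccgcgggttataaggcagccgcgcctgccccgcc

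Counted from -1 at the base before the start site, matches began at -226 and -52 for Hk2, at -150 and -131 for Pgk1 and at -175, -114 and -88 for Pgam1. In Slc16a1 they began at -200, -199, -149 and -134. In Ldha, matches began at -145, -144, -48, -47 and -34, since each of its 2 copies of the palindrome CACGTG (an E-box) holds the core on both strands. RefSeq promoters (250 bases before to 50 after a start) were found for 36 of the 37 genes, Slc2a3 being the missing entry, with 54 start sites in all. ACGTG stood on either strand in 25 of these 54 promoters (46.3%) and in 19.6% of all 32851 promoters in the table. GCGTG stood in 31 (57.4%, against 32.4%), and one or the other in 43 (79.6%, against 43.8%). CACGTG, which contains ACGTG, stood in 8 (14.8%, against 7.15%). The ATF4 element core TGATGNAA stood in 0 of 54 promoters, against 3.97% of all. By gene, 14 of the 17 genes that rose on day 13 held a core, as did 19 of the 19 others.

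Library totals ran from 28208561 to 126435936 counts with a median of 55582027, and the day 13 libraries ran from 38423852 (mouse C) to 126435936 (mouse B). Tsc1 itself fell to 74.5% of the control mean on day 4, 68.9% on day 6, 68.9% on day 8, 60.4% on day 13 and 64.0% under rapamycin, each with an exact two-sided permutation p of 0.0286, the smallest that 4 mice against 4 allow. The markers of excitatory hippocampal neurons, Camk2a, Slc17a7, Neurod6 and Prox1 among them, were present in every group. All 37 genes passed the filter on low counts in all 9 comparisons, from 52 to 277 counts per library for Egln3, the lowest. Levels below are CPM (counts per 1000000 counts of a library) scaled by TMM over the 24 mice, mice are given in the order A, B, C and D, and n is 4 mice per group throughout. A gene is written as having risen or fallen where its adjusted p in edgeR was under 0.05, and as called where its log2 fold change was also beyond 0.5 in size, the thresholds of the study. In parentheses stand the log2 fold change ± its SE and the adjusted p.

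Together the 37 genes took 0.610% to 0.632% of all counts in controls, 0.623% to 0.641% on day 4, 0.638% to 0.661% on day 6, 0.680% to 0.729% on day 8 and 0.729% to 0.765% on day 13. Under rapamycin the share was 0.524% to 0.610%, so every day 8 and day 13 mouse lay above every control and every rapamycin mouse.

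The genes of glycolysis were higher than in controls in growing number from day 6 to day 13, while Pdk2 fell from day 6 and Pdk4 fell on day 8. On day 4, 0 of 37 were called, with 7 under an unadjusted p of 0.05 (4654 of all 25308 genes tested) and 0 called by DESeq2. On that day 2 rose, both glucose transporters, where 2.61% of all genes tested rose and 1.56% fell, and 0.34% were called in each direction. On day 6, 0 were called, and 0 by DESeq2 (0.647% of all genes were called higher and 0.678% lower). At an unadjusted p under 0.05 stood 17 of the 37 and 6076 of all 25057 genes tested. Still, 9 rose and 3 fell, against 6.24% and 3.81% of all genes. Of these 12, only Hif1a kept an adjusted p under 0.05 when the spread was estimated over all 24 mice, and 5 kept it without each mouse in turn (Slc2a3, Pgk1, Pgam1, Ldha and Hif1a). Day 8 brought 14 that rose and 2 that fell (all genes 8.41% and 4.87%), with 1 called higher and 1 lower (all genes 2.15% and 1.84%). By day 13, 18 had risen and 1 had fallen (all genes 15.6% and 11.3%), and 11 were called higher and 1 lower (all genes 8.4% and 8.06%). The median log2 fold change of the 37 genes was 0.05, 0.08, 0.18 and 0.33 on the 4 days, where that of all genes tested was -0.005, -0.018, -0.025 and -0.040.

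Rapamycin-treated mice differed from controls in 5 of the 37 genes and from untreated day 13 mice in 26. Against controls, 2 genes rose and 3 fell (all genes 1.26% and 2.31%), and 1 was called, Pdk4, which was higher (all genes called higher and lower 0.372% and 1.04%). Against untreated day 13 mice, 24 fell and 2 rose (all genes 17.7% and 13.1%), and 16 were called lower and 1 higher (all genes 11.2% and 9.94%). With the spread over all 24 mice, none of the 5 genes kept an adjusted p under 0.05 against controls (0.097 for Pdk4 to 0.395 for Vegfa). The medians were -0.07 against controls and -0.47 against day 13. These comparisons share mice with those above, so the same control or day 13 values enter more than one of them. Over all 6 groups, an F test on the 24 mice gave an adjusted p under 0.05 for 28 of 37 genes (75.7%), against 41.9% of all genes tested. The 9 without were Pfkl, Pfkfb2, Aldoc, Ldhb, Pdk1, Slc16a3, Pgd, Rpia and Egln3. Shares of all genes, here and elsewhere, are over every gene tested and were not matched to the 37 genes by level.

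**Figure D1:**
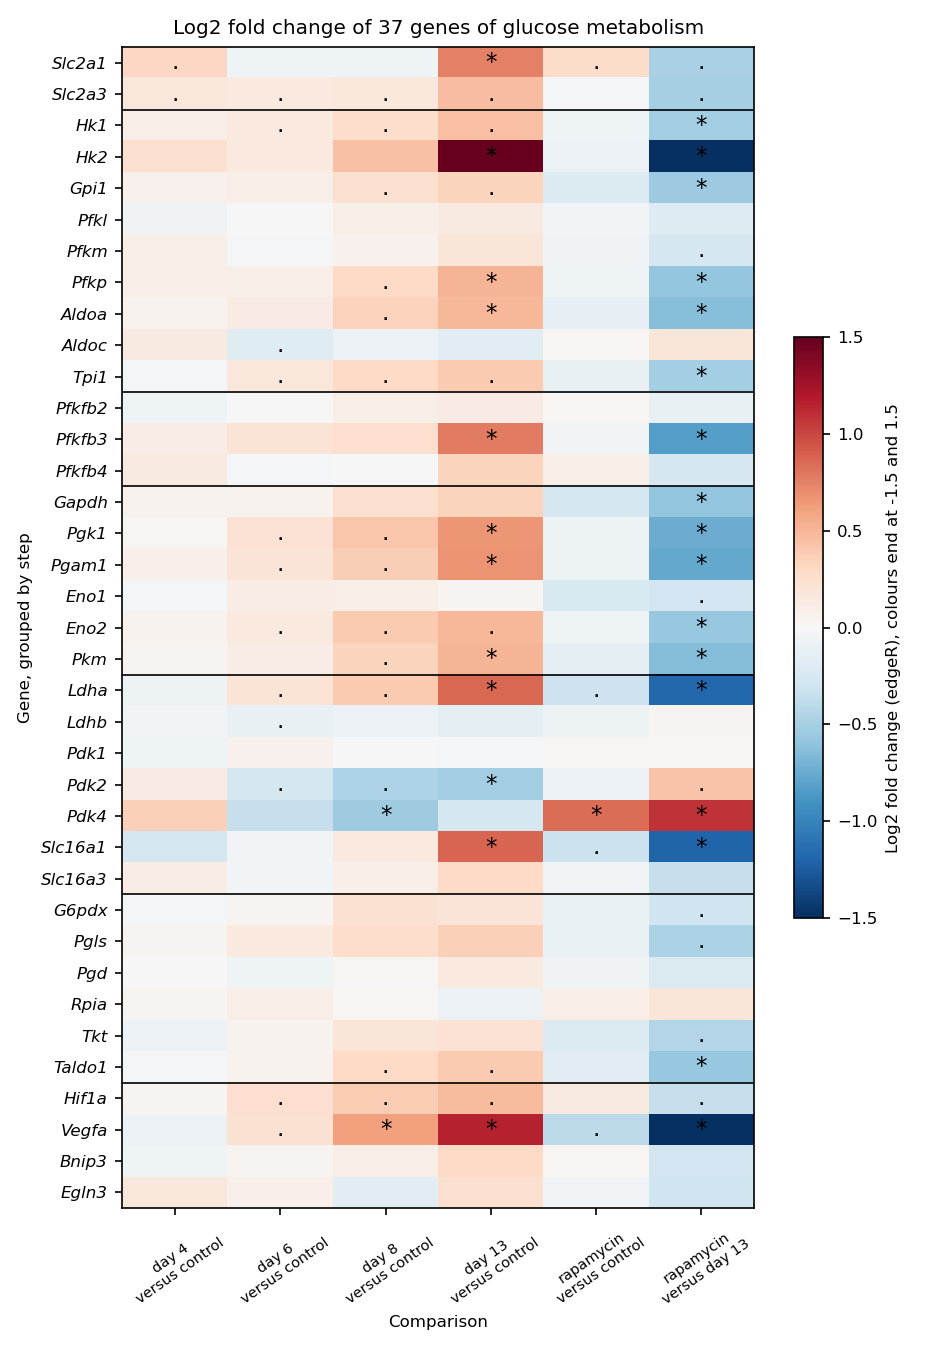
Log2 fold change of each of the 37 genes (rows, grouped by step) in 6 comparisons (columns), red for higher and blue for lower in the group named first. A star marks a called gene and a dot an adjusted p under 0.05 alone; the colours deepen from day 4 to day 13, where 12 genes are starred, fade against control under rapamycin, where 1 is, and turn blue in rapamycin versus day 13, where 17 are.

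Levels between genes were compared per length, as CPM per kb of annotated exon. This length counts every annotated exon of a gene, used in hippocampus or not, so the order of genes depends on it. In controls, aldolase A (Aldoa) led with 299 ± 10.5 CPM per kb (SD), followed by Pkm, pyruvate kinase, with 145 ± 4.303, Aldoc, the aldolase typical of astrocytes, with 131 ± 9.81, and Eno2, the neuronal enolase, with 119 ± 5.12. The SDs of neighbours in this order overlapped from Pkm to Tpi1 (110.1 ± 4.05), while Ldhb (102 ± 1.23) lay below Tpi1 by more than their SDs. The pentose phosphate enzymes lay lower, from 24.3 ± 1.46 for Taldo1 and 15.1 ± 1.04 for Tkt to 2.00 ± 0.132 for Rpia. At the bottom stood Hk2 with 0.831 ± 0.0588, Egln3 with 0.657 ± 0.0547 and Slc16a3 with 0.645 ± 0.0730, the SDs of the last pair overlapping. On day 13 Hk2 reached 2.84 ± 1.40 CPM per kb, still below the 47.3 ± 4.11 of Hk1.

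**Figure D2:**
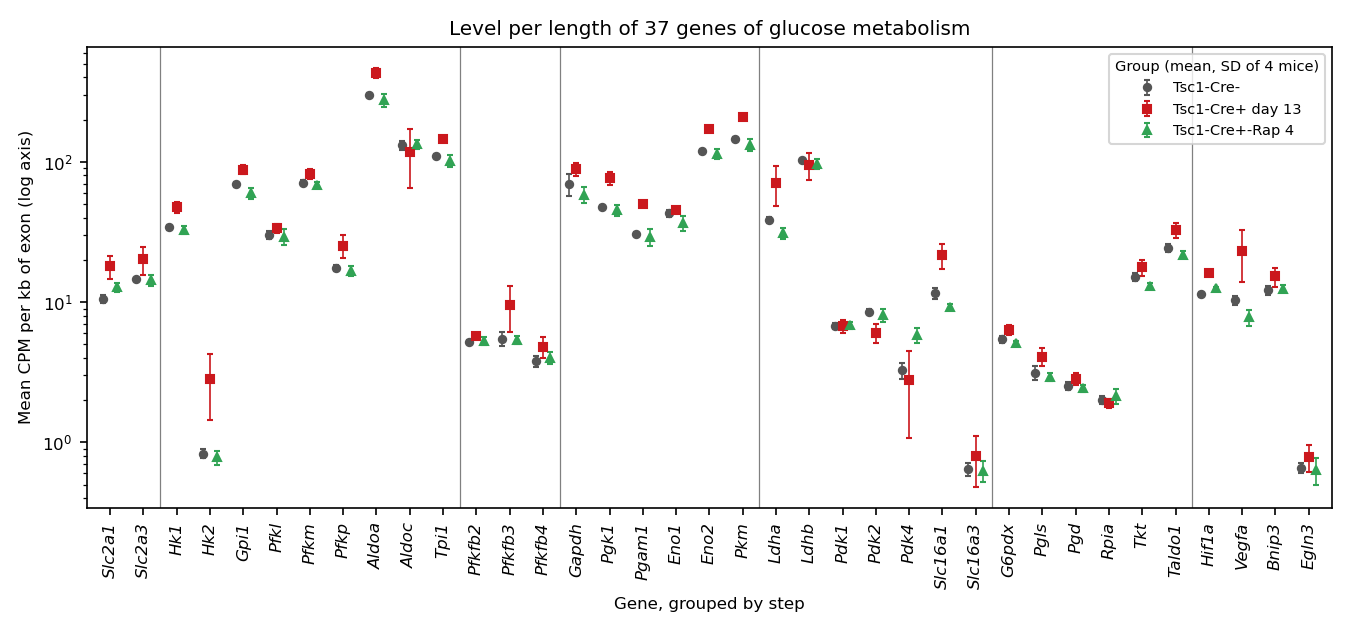
Mean level of the 37 genes (horizontal axis, grouped by step) as CPM per kb of exon on a log axis, with the SD of 4 mice, in controls (grey circles), untreated day 13 mice (red squares) and rapamycin mice (green triangles). The red squares lie above both other groups over most of glycolysis, with wide bars for Hk2, Pfkfb3, Aldoc, Ldha, Pdk4 and Vegfa.

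Glucose enters through SLC2A1 (GLUT1), the transporter of vessels and astrocytes, and SLC2A3 (GLUT3), that of neurons. Slc2a1 was at 33.7, 39.9, 37.4 and 36.8 CPM in controls and at 79.3, 59.6, 61.7 and 51.6 on day 13, where it was called higher (log2 fold change 0.75 ± 0.12 SE, adjusted p = 0.00286). It was raised on day 4 as well, at 47.7, 43.0, 45.1 and 47.9 CPM (0.31 ± 0.06, adjusted p = 0.011), yet not on day 6 (31.9, 34.2, 38.5 and 37.4 CPM) or day 8 (32.8, 37.7, 39.6 and 33.0). All 4 mice of day 4 and of day 13 lay above all controls, while those of day 6 and day 8 overlapped with them. The day 4 rise was lost when the spread was estimated over all 24 mice (adjusted p = 0.227). From day 4 to day 6 Slc2a1 fell (-0.39 ± 0.06, adjusted p = 0.00307). Rapamycin mice, at 40.9, 46.2, 47.8 and 43.3 CPM, also lay above all controls and below all untreated day 13 mice (0.27 ± 0.06, adjusted p = 0.0353 against control, -0.49 ± 0.12, adjusted p = 0.0143 against day 13). The rise against control under rapamycin kept an adjusted p under 0.05 in only 1 of 8 fits that each left out a mouse, with an adjusted p of up to 0.109. The summed level of 8 endothelial markers was 174 to 215 CPM in controls, 156 to 179 on day 4, 186 to 242 on day 13 and 142 to 151 under rapamycin (exact two-sided permutation p = 0.0571 on day 4, 0.171 on day 13 and 0.0286 under rapamycin, each against control). Against day 13, where Slc2a1 fell under rapamycin, 5 of the 8 endothelial markers were called lower, against 11.2% of all genes. The median log2 fold change of the 8 markers was -0.58, and their part in the levels of Slc2a1 was not tested. Slc2a3 rose by less, on day 4 (0.17 ± 0.04, adjusted p = 0.0314), day 6 (0.15 ± 0.04, adjusted p = 0.0149), day 8 (0.17 ± 0.05, adjusted p = 0.045) and day 13 (0.46 ± 0.14, adjusted p = 0.0388), with day 13 levels of 149, 173, 165 and 99.7 CPM against 101 to 108 in controls. Mouse D of day 13 lay below every control, and the rise held in 2 of 8 fits that left out a mouse on day 4 (adjusted p up to 0.111), in 1 on day 8 (up to 0.13) and, on day 13, in 1 (up to 0.099), the fit without mouse D.

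Hexokinases trap glucose as glucose-6-phosphate. Hk1, the constitutive brain form, was at 308, 289.6, 286 and 279.5 CPM in controls, 309, 317, 306 and 314 on day 4, 326, 322, 336 and 315 on day 6, 380.1, 381, 324 and 327 on day 8, 422, 443, 378 and 370.0 on day 13 and 297, 293, 271 and 254 under rapamycin. It rose on day 6 (0.15 ± 0.04, adjusted p = 0.035), day 8 (0.26 ± 0.07, adjusted p = 0.025) and day 13 (0.45 ± 0.07, adjusted p = 0.00237), where all 4 mice lay above all controls, and fell with rapamycin against day 13 (-0.52 ± 0.08, adjusted p = 0.00175). The rise held in 1 of 8 fits without a mouse on day 6 (adjusted p up to 0.125) and in 4 on day 8 (up to 0.0842, lost without control B, C or D or day 8 mouse A). Hk2, the form that HIF and growth signals are known to induce, had the largest log2 fold change of the 37 genes on day 13 and for rapamycin against day 13. Its levels were 4.95, 4.79, 5.46 and 4.65 CPM in controls, 6.44, 5.22, 5.53 and 6.28 on day 4, 5.94, 5.23, 5.47 and 5.44 on day 6, 6.85, 5.24, 9.79 and 5.38 on day 8, 27.2, 20.0, 12.2 and 8.42 on day 13 and 4.47, 5.41, 4.60 and 4.16 under rapamycin. One day 8 mouse, C, stood apart from the other 3, and on day 13 all 4 mice lay above all controls, spread between 8.42 and 27.2 CPM. The test gave 0.44 ± 0.18, adjusted p = 0.137 on day 8, which did not pass, 1.75 ± 0.31, adjusted p = 0.00398 on day 13 and -1.85 ± 0.31, adjusted p = 0.00241 for rapamycin against day 13. The calls of Hk2 on day 13 and for rapamycin held without each mouse in turn, with log2 fold changes of 1.43 to 1.97 on day 13.

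Phosphofructokinase, the committed step, has 3 subunits. Pfkp, the platelet-type subunit that brain also makes, was at 239, 225, 247 and 227 CPM in controls, 252, 254, 249 and 246 on day 4, 246, 269, 241 and 246 on day 6, 299, 289, 311 and 266 on day 8, 415, 357, 307 and 271 on day 13 and 236, 205, 244 and 209.7 under rapamycin. All day 8 and day 13 mice lay above all controls. It rose on day 8 (0.30 ± 0.06, adjusted p = 0.00753) and was called on day 13 (0.50 ± 0.12, adjusted p = 0.012), and it fell under rapamycin against day 13 (-0.58 ± 0.12, adjusted p = 0.00682). Pfkm and Pfkl did not pass in any comparison with control (0.19 ± 0.07, adjusted p = 0.0627 and 0.13 ± 0.07, adjusted p = 0.202 on day 13), although Pfkm was lower under rapamycin than on day 13 (-0.25 ± 0.07, adjusted p = 0.0258; up to 0.0855 without rapamycin mouse B, C or D). PFKFB enzymes set the amount of fructose-2,6-bisphosphate, the strongest activator of phosphofructokinase. Pfkfb3, the form with the strongest kinase activity, was at 45.4, 43.2, 42.6 and 34.997 CPM in controls, 46.3, 45.4, 42.1 and 45.2 on day 4, 51.3, 46.9, 46.7 and 48.2 on day 6, 54.4, 47.3, 53.7 and 43.8 on day 8, 99.8, 87.3, 57.2 and 44.5 on day 13 and 42.8, 42.6, 38.5 and 37.8 under rapamycin. On day 13 mice A and B stood highest and mouse D within the control range. Pfkfb3 was called there (0.77 ± 0.22, adjusted p = 0.0289), and the call was lost without any one control or without mouse A or B (adjusted p up to 0.0851). Against day 13 it fell under rapamycin (-0.83 ± 0.21, adjusted p = 0.0161), a call lost only without rapamycin mouse D (adjusted p = 0.0519). Pfkfb2 and Pfkfb4 gave 0.12 ± 0.06, adjusted p = 0.193 and 0.33 ± 0.12, adjusted p = 0.0733 on day 13.

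The other preparatory enzymes moved by less than Hk2 and Pfkfb3, and only Aldoa was called on day 13. Gpi1, glucose-6-phosphate isomerase, was at 445 ± 21.0 CPM (SD) in controls, 532 ± 40.7 on day 8, 567 ± 41.6 on day 13 and 386 ± 33.1 under rapamycin, and passed on day 8 (0.24 ± 0.06, adjusted p = 0.0273; up to 0.0909 without control B, C or D or day 8 mouse A), on day 13 (0.33 ± 0.07, adjusted p = 0.0108) and for rapamycin against day 13 (-0.54 ± 0.09, adjusted p = 0.00199). Aldoa stood at 913, 842, 858 and 873 CPM in controls, 902, 939.5, 895 and 889 on day 4, 969.5, 970.3, 959.8 and 923 on day 6, 1181, 1084, 1154 and 1041 on day 8, 1298, 1382, 1169.9 and 1163 on day 13 and 859, 852, 816 and 681 under rapamycin. All day 6, 8 and 13 mice lay above all controls, though day 6 did not pass (0.12 ± 0.04, adjusted p = 0.087). Aldoa rose on day 8 (0.34 ± 0.05, adjusted p = 0.0031), was called on day 13 (0.50 ± 0.07, adjusted p = 0.00145) and fell under rapamycin against day 13 (-0.63 ± 0.09, adjusted p = 0.00139); rapamycin mouse D was the lowest of all 24. Tpi1, triosephosphate isomerase, rose on day 6 (0.18 ± 0.04, adjusted p = 0.0142; 0.0636 without day 6 mouse C), on day 8 and on day 13 (0.30 ± 0.05, adjusted p = 0.00328 and 0.39 ± 0.06, adjusted p = 0.00235). It was called lower under rapamycin against day 13 (-0.51 ± 0.08, adjusted p = 0.00219), near the fold minimum, with -0.569 to -0.447 when a mouse was left out. Aldoc moved otherwise: it fell on day 6 (-0.18 ± 0.05, adjusted p = 0.04; up to 0.112 in 7 of 8 fits without a mouse) and was split on day 13, with 306, 181, 537 and 521 CPM against 436, 384, 433 and 461 in controls, mice A and B below all controls and C and D above (-0.16 ± 0.29, adjusted p = 0.706). The summed level of 8 astrocyte markers was 5497 to 6011 CPM in controls, 5004 to 5388 on day 6 (exact two-sided permutation p = 0.0286) and 5237 to 5999 on day 13. The sum was thus lower beside Aldoc on day 6, and its part in that result was not tested. On day 13 single astrocyte markers parted, with log2 fold changes from -0.93 to 1.91. Of the 8, 1 was called higher and 1 lower there (all genes 8.4% and 8.06%). Reads of Aldoa, Tpi1, Gapdh, Pfkp and Pfkm may be mixed with those of overlapping genes on the other strand, unless counting used strand. These are Fam57b, Spsb2, Iffo1, Pitrm1 and Senp1. Slc2a1, Hk1, Hk2, Pfkfb2, Pfkfb3, Pdk2, Hif1a and Bnip3 also overlap genes on the other strand. Slc2a1, Slc2a3, Pfkm, Pfkfb2, Pfkfb3, Pkm, Slc16a1, Tkt and Hif1a overlap genes on their own strand. Overlap was taken over whole genes, not over exons.

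In the payoff phase, 4 of 6 enzymes rose on day 8 and on day 13, and all 6 fell under rapamycin against day 13. Of all genes, 8.41% and 15.6% rose on day 8 and day 13, and 17.7% fell under rapamycin against day 13. Pgk1, phosphoglycerate kinase, was at 112, 104, 103 and 109 CPM in controls, 109, 114, 102 and 108 on day 4, 124, 127, 127 and 120.4 on day 6, 143, 138, 149 and 146 on day 8, 172, 196, 160.0 and 157 on day 13 and 108, 105, 106 and 87.8 under rapamycin. From day 6 on, every untreated Tsc1-Cre+ mouse lay above every control, and the groups of day 6, day 8 and day 13 did not overlap. Its log2 fold changes were 0.21 ± 0.04, adjusted p = 0.00231 on day 6, 0.41 ± 0.05, adjusted p = 0.000609 on day 8 and 0.66 ± 0.07, adjusted p = 0.000646 on day 13, and -0.74 ± 0.09, adjusted p = 0.000641 for rapamycin against day 13. Pgam1, phosphoglycerate mutase, was at 60.3, 60.7, 59.8 and 62.9 CPM in controls, 62.4, 67.6, 59.7 and 66.8 on day 4, 71.3, 70.4, 71.2 and 66.6 on day 6, 84.6, 80.3, 79.2 and 73.2 on day 8, 94.8, 98.7, 105 and 96.4 on day 13 and 60.4, 61.8, 63.1 and 45.9 under rapamycin. The groups of controls, day 6, day 8 and day 13 did not overlap for Pgam1 either (0.19 ± 0.03, adjusted p = 0.004 on day 6, 0.37 ± 0.05, adjusted p = 0.00141 on day 8, 0.68 ± 0.06, adjusted p = 0.000273 on day 13, -0.76 ± 0.10, adjusted p = 0.00102 for rapamycin against day 13). Near-identical pseudogenes of Pgam1 and Ldha were also counted, with at most 0.660% of the counts of their parent gene, and reads could be split between them.

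The last steps are enolase and pyruvate kinase. Eno2 was at 581, 528, 549 and 574 CPM in controls, 565, 599, 549 and 600.0 on day 4, 603, 621, 644 and 623 on day 6, 769.5, 753, 752 and 686 on day 8, 754, 803, 803 and 839 on day 13 and 587, 547, 512 and 491 under rapamycin. All day 6, 8 and 13 mice lay above all controls. It gave 0.15 ± 0.04, adjusted p = 0.0471 on day 6 (up to 0.163 in 6 of 8 fits without a mouse), 0.39 ± 0.05, adjusted p = 0.00151 on day 8 and 0.50 ± 0.06, adjusted p = 0.00112 on day 13, just short of the fold minimum. Pkm was at 756, 712, 708 and 726 CPM in controls, 743, 771, 721 and 749 on day 4, 783, 815, 786 and 772 on day 6, 970.2, 938, 919 and 867 on day 8, 1026, 1099.8, 1073 and 996 on day 13 and 719, 689.6, 665 and 575 under rapamycin. It lay above all controls in the same 3 groups, rose on day 8 (0.33 ± 0.05, adjusted p = 0.00249), was just past the fold minimum on day 13 (0.51 ± 0.06, adjusted p = 0.000776) and fell under rapamycin against day 13 (-0.65 ± 0.08, adjusted p = 0.000757). Among the calls near the minimum were those of Aldoa, Pfkp, Pkm and Pdk2 on day 13, where leaving out a mouse moved their log2 fold changes over 0.467 to 0.559, 0.394 to 0.594, 0.498 to 0.536 and -0.594 to -0.401, always with an adjusted p under 0.05. Gapdh, often used as a reference gene, was at 342, 316, 238 and 252 CPM in controls, 317, 297, 282 and 292 on day 4, 329, 290.2, 252 and 327 on day 6, 383, 407, 280.4 and 299 on day 8, 404, 347, 398 and 317 on day 13 and 218, 268, 209.7 and 269 under rapamycin. It spread widely among controls and did not pass against control at any time (0.33 ± 0.13, adjusted p = 0.0855 on day 13), but fell under rapamycin against day 13 (-0.60 ± 0.11, adjusted p = 0.00421). Eno1, the enolase of glia and most other cells, gave 0.04 ± 0.06, adjusted p = 0.673 on day 13 and -0.29 ± 0.09, adjusted p = 0.0427 for rapamycin against day 13, lost in 6 of 8 fits without a mouse (up to 0.0934).

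**Figure D3:**
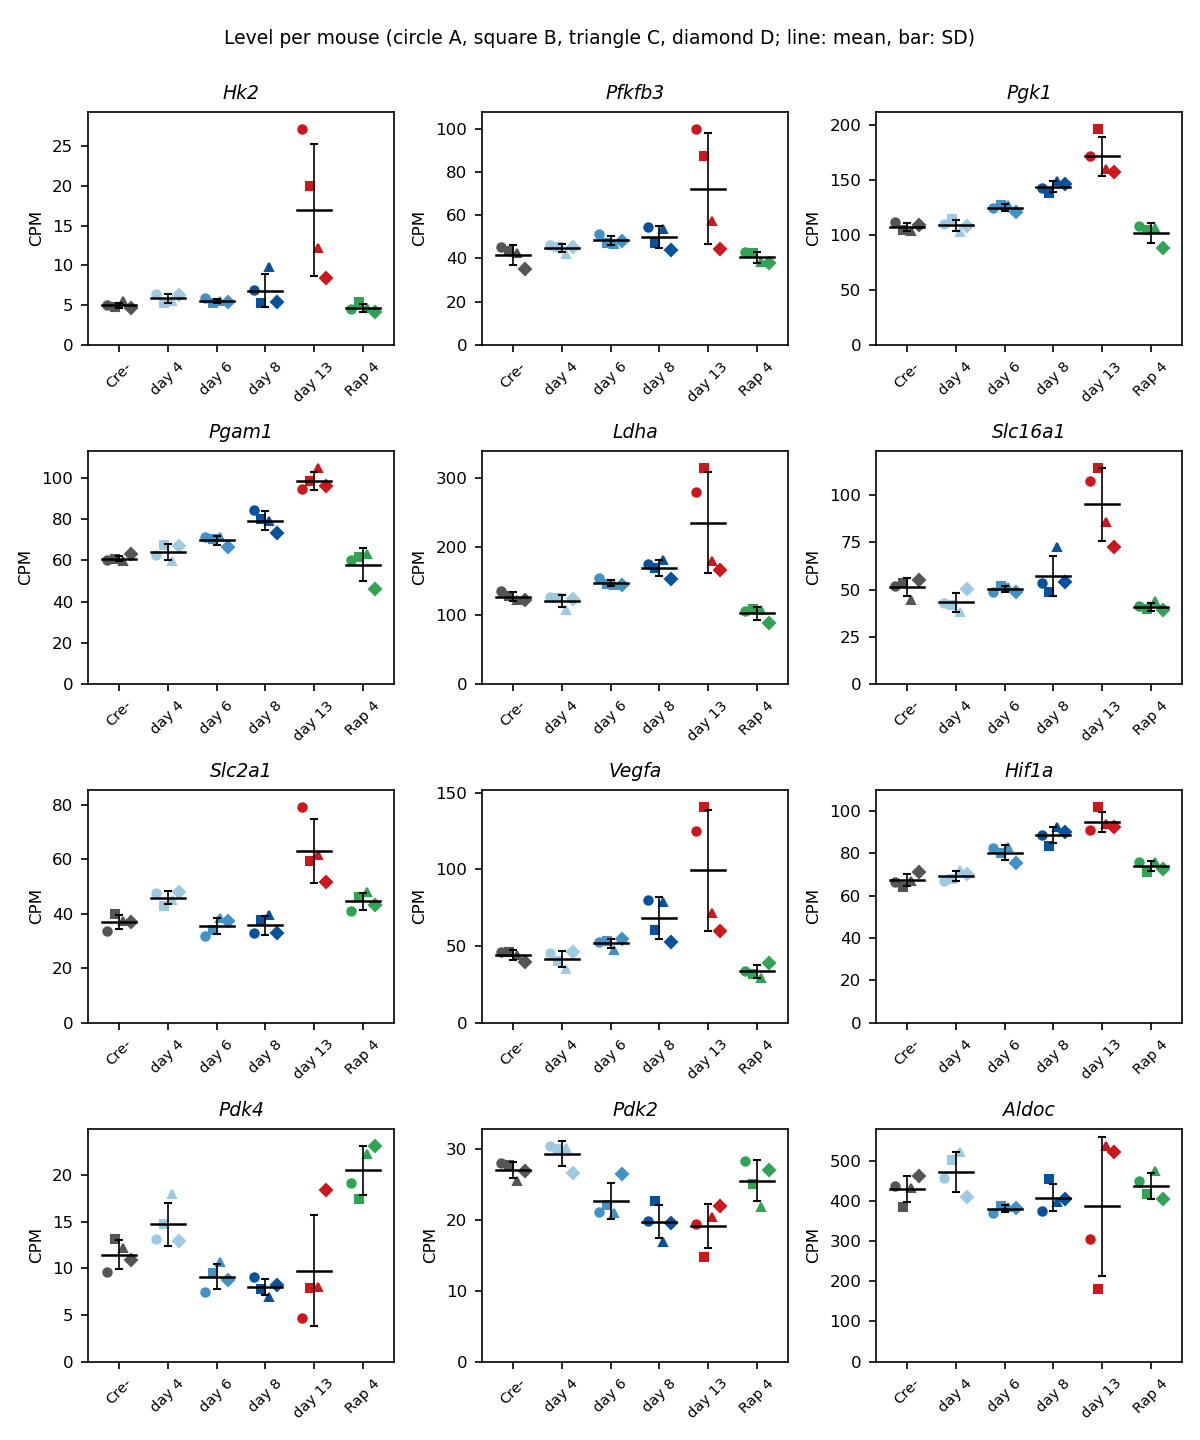
Level of 12 genes in each of the 24 mice as CPM on linear axes from 0, by group (Cre- is control, Rap 4 the rapamycin group), one symbol per mouse letter, with the mean (line) and SD (bar) of 4 mice. Pgk1, Pgam1 and Hif1a climb from day 6 with tight groups, Hk2, Pfkfb3, Ldha and Vegfa spread on day 13 with mice A and B highest, and Pdk4 has its highest mean under rapamycin.

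Ldha, the lactate dehydrogenase subunit that favours lactate formation, holds HIF cores and E-boxes in the promoter shown above. It rose from day 6: 136, 128, 122 and 122 CPM in controls, 126, 126, 108 and 123 on day 4, 154, 146, 144 and 144 on day 6, 175, 168, 180.1 and 153 on day 8, 279, 315, 179 and 166 on day 13 and 107, 108, 107 and 88.5 under rapamycin. All mice from day 6 to day 13 lay above all controls, and all 4 rapamycin mice lay below them. The log2 fold changes were 0.20 ± 0.04, adjusted p = 0.00694 on day 6, 0.40 ± 0.06, adjusted p = 0.00241 on day 8, 0.86 ± 0.18, adjusted p = 0.00879 on day 13, -0.31 ± 0.07, adjusted p = 0.0217 for rapamycin against control and -1.18 ± 0.19, adjusted p = 0.00188 against day 13. Without control mouse B, the fall under rapamycin against control had an adjusted p of 0.0579. Ldhb, the subunit that favours the return of lactate to pyruvate, was at 158 to 162 CPM in controls and 138, 107, 178 and 171 on day 13 (-0.13 ± 0.15, adjusted p = 0.528); its small fall on day 6 (-0.11 ± 0.03, adjusted p = 0.0428) did not hold in any of 8 fits that left out a mouse.

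The lactate transporter Slc16a1 (MCT1), known from vessels and oligodendrocytes, was at 52.1, 53.6, 44.7 and 55.1 CPM in controls, 42.8, 41.6, 38.2 and 50.1 on day 4, 49.0, 52.1, 51.3 and 48.6 on day 6, 53.5, 48.9, 72.6 and 54.0 on day 8, 108, 115, 86.1 and 72.4 on day 13 and 41.1, 39.6, 43.9 and 39.1 under rapamycin. All day 13 mice lay above, and all rapamycin mice below, all controls. It was called on day 13 (0.87 ± 0.13, adjusted p = 0.0023) and fell under rapamycin against both groups (-0.33 ± 0.07, adjusted p = 0.0184 against control, -1.21 ± 0.13, adjusted p = 0.000389 against day 13). The fall against control was lost without control B or D or rapamycin mouse A or B (up to 0.0708). Beside both falls, the endothelial markers were lower under rapamycin than in controls and than on day 13, with the values given for Slc2a1. The sum of 6 oligodendrocyte markers was 2931 to 4555 CPM in controls, 2298 to 4608 on day 13 and 2535 to 3454 under rapamycin (exact two-sided permutation p = 0.0571 for the last), and the part of these cells in the result was not tested. Slc16a3 (MCT4), the exporter known from astrocytes, was among the lowest per length, with Egln3, and did not pass in any comparison (0.29 ± 0.24, adjusted p = 0.396 on day 13).

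The PDK kinases close the way of pyruvate into mitochondria. Pdk1, Pdk2 and Pdk4, those among the 37 genes, passed the test for a rise in no untreated group. Pdk3 was counted with the pyruvate dehydrogenase complex and its regulators. Pdk2 fell on day 6 (-0.26 ± 0.07, adjusted p = 0.0365; up to 0.126 in 6 of 8 fits without a mouse), on day 8 (-0.47 ± 0.09, adjusted p = 0.00582) and on day 13, where it was called (-0.52 ± 0.12, adjusted p = 0.0148), with 28.1, 27.7, 25.5 and 26.9 CPM in controls, 19.9, 22.7, 16.9 and 19.5 on day 8 and 19.5, 14.8, 20.4 and 21.9 on day 13. Its level under rapamycin was 28.3, 25.1, 21.8 and 27.0 CPM (-0.08 ± 0.08, adjusted p = 0.625 against control; 0.43 ± 0.14, adjusted p = 0.0427 against day 13, held in 3 of 8 fits without a mouse, up to 0.117). Pdk4, the kinase known to answer to fasting and glucocorticoids, was at 9.63, 13.1, 12.2 and 10.9 CPM in controls, 13.2, 14.7, 18.0 and 12.9 on day 4, 7.47, 9.48, 10.6 and 8.73 on day 6, 9.02, 7.81, 6.96 and 8.25 on day 8, 4.70, 7.89, 7.98 and 18.4 on day 13 and 19.2, 17.4, 22.2 and 23.1 under rapamycin. Every day 8 mouse lay below every control and every rapamycin mouse above every control. Pdk4 fell on day 8 (-0.53 ± 0.11, adjusted p = 0.0124), in which leaving out control mouse B or day 8 mouse C took the log2 fold change to as little as -0.462, and it was the one gene of the 37 called against control under rapamycin (0.84 ± 0.11, adjusted p = 0.00148). The fall from day 4 to day 6 was also called (-0.71 ± 0.11, adjusted p = 0.004). These 3 calls of Pdk4 were lost when the spread was estimated over all 24 mice (adjusted p = 0.185 on day 8, 0.097 for rapamycin and 0.352 from day 4 to day 6). On day 13 mouse D stood above all controls and the other 3 mice below them, and Pdk4 gave -0.26 ± 0.35, adjusted p = 0.61 against control; the call for rapamycin against day 13 (1.09 ± 0.34, adjusted p = 0.0359) held in only 1 of the 8 fits without a mouse, that without day 13 mouse D (up to 0.0925 in the others). Pdk1, a HIF target in many tissues, gave -0.02 ± 0.09, adjusted p = 0.875 on day 13 and passed in no comparison.

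Of the 6 pentose phosphate genes, 4 fell under rapamycin against day 13 (17.7% of all genes). On day 8 and on day 13 the same 1 rose (8.41% and 15.6% of all genes). That one was Taldo1, transaldolase, which links the pathway back to glycolysis: 49.7, 56.5, 50.6 and 54.4 CPM in controls, 68.2, 56.0, 76.0 and 62.4 on day 8, 68.3, 82.8, 63.5 and 67.6 on day 13 and 49.4, 47.6, 48.6 and 43.3 under rapamycin (0.30 ± 0.08, adjusted p = 0.0401 on day 8, held in 2 of 8 fits without a mouse, up to 0.109, 0.40 ± 0.08, adjusted p = 0.00908 on day 13, -0.57 ± 0.09, adjusted p = 0.00182 for rapamycin against day 13). Tkt, transketolase, gave 0.22 ± 0.10, adjusted p = 0.121 on day 13 and fell under rapamycin against day 13 (-0.44 ± 0.09, adjusted p = 0.00719). G6pdx, the rate-limiting NADPH-forming enzyme, and Pgls, the lactonase after it, gave 0.20 ± 0.09, adjusted p = 0.118 and 0.36 ± 0.12, adjusted p = 0.0521 on day 13, and both fell under rapamycin against day 13 (-0.30 ± 0.09, adjusted p = 0.026 and -0.47 ± 0.12, adjusted p = 0.0146). The fall of G6pdx held in 4 of 8 fits without a mouse (up to 0.0852 without day 13 mouse B or rapamycin mouse B, C or D). Pgd and Rpia passed in no comparison with control or day 13 (0.15 ± 0.10, adjusted p = 0.265 and -0.09 ± 0.10, adjusted p = 0.507 on day 13). G6pdx overlaps Ikbkg on the other strand and Pgls overlaps Fam129c on its own, which leaves both values uncertain.

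Hif1a RNA rose from day 6 with little spread: 66.4, 64.1, 66.9 and 71.0 CPM in controls, 66.7, 67.8, 72.2 and 70.3 on day 4, 82.6, 79.9, 83.0 and 75.4 on day 6, 88.8, 83.6, 92.2 and 89.8 on day 8, 90.8, 102, 93.9 and 92.2 on day 13 and 75.8, 71.1, 75.7 and 72.6 under rapamycin. Mice of day 6, 8 and 13 all lay above all controls, and so did those under rapamycin, where the test did not pass (0.14 ± 0.05, adjusted p = 0.127). It passed on day 6 (0.25 ± 0.04, adjusted p = 0.00188), day 8 (0.39 ± 0.05, adjusted p = 0.00113) and day 13 (0.48 ± 0.06, adjusted p = 0.00106) and fell under rapamycin against day 13 (-0.35 ± 0.06, adjusted p = 0.00356), each time short of the fold minimum. Vegfa, the angiogenic HIF target, was the only one of the 37 genes called higher on day 8. Its levels were 46.3, 45.9, 44.3 and 39.7 CPM in controls, 45.2, 39.9, 34.8 and 45.9 on day 4, 52.5, 53.0, 47.3 and 54.3 on day 6, 80.2, 60.5, 78.9 and 52.5 on day 8, 125, 141, 71.6 and 59.9 on day 13 and 33.7, 32.0, 28.8 and 39.2 under rapamycin, where all 4 mice lay below all controls. The log2 fold changes were 0.22 ± 0.06, adjusted p = 0.0248 on day 6, 0.61 ± 0.12, adjusted p = 0.00835 on day 8, 1.15 ± 0.24, adjusted p = 0.00802 on day 13, -0.40 ± 0.08, adjusted p = 0.0208 for rapamycin against control and -1.56 ± 0.24, adjusted p = 0.00182 against day 13. Without a mouse in turn, 3 of 8 fits kept the rise on day 6 (up to 0.0769) and 3 of 8 the fall under rapamycin against control (up to 0.0733, lost without control A, B or C or rapamycin mouse A or B). The other 2 HIF targets did not pass in any comparison: Bnip3, a mitophagy receptor, with 0.30 ± 0.12, adjusted p = 0.0881 on day 13, and Egln3, a prolyl hydroxylase that marks HIF for breakdown, with 0.24 ± 0.18, adjusted p = 0.335.

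Shares between isoenzymes, computed per length in each mouse, describe how the mixture shifted. Their size depends on the lengths used, which count every annotated exon (3310 bases for Ldha and 1570 for Ldhb). Ldha made up 27.3% ± 0.949 (SD) of Ldha plus Ldhb in controls, 31.8% ± 1.23 on day 6, 34.6% ± 3.75 on day 8 and 42.8% ± 13.0 on day 13, where single mice ran from 31.6% to 58.2%. Under rapamycin the share was 24.2% ± 2.02. Hk2 went from 2.38% ± 0.183 of the hexokinase pair in controls to 5.51% ± 2.28 on day 13, so Hk1 remained the main form in every mouse. Aldoa took 69.5% ± 1.34 of the aldolase pair in controls and 75.4% ± 2.29 on day 8, without overlap between the groups. The share of Eno1 in the enolase pair was 26.7% ± 1.03 in controls, 22.7% ± 1.59 on day 8, 20.9% ± 1.24 on day 13 and 24.4% ± 1.29 under rapamycin. That of the neuronal Eno2 was thus above every control in every mouse of day 8, of day 13 and under rapamycin. Single mice had an Eno1 share of 25.7% to 27.7% in controls and 22.5% to 25.3% under rapamycin. Slc2a1 took 42.0% ± 1.99 of the glucose transporter pair in controls, 44.4% ± 2.31 on day 4 and 38.2% ± 1.96 on day 8. Its share was 47.3% ± 5.54 on day 13 and 47.2% ± 3.00 under rapamycin. Slc16a1 made up 94.7% ± 0.810 of the monocarboxylate transporter pair in controls and 96.5% ± 0.898 on day 13. Pdk4 took 17.6% ± 2.25 of Pdk1, Pdk2 and Pdk4 together in controls, 14.9% ± 1.15 on day 8 and 28.1% ± 3.39 under rapamycin. Pdk3 was not part of this share. Among phosphofructokinases, Pfkm held 59.8% ± 0.799 in controls and 58.2% ± 2.55 on day 13, and Pfkp 14.8% ± 0.944 and 17.9% ± 2.36.

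**Figure D4:**
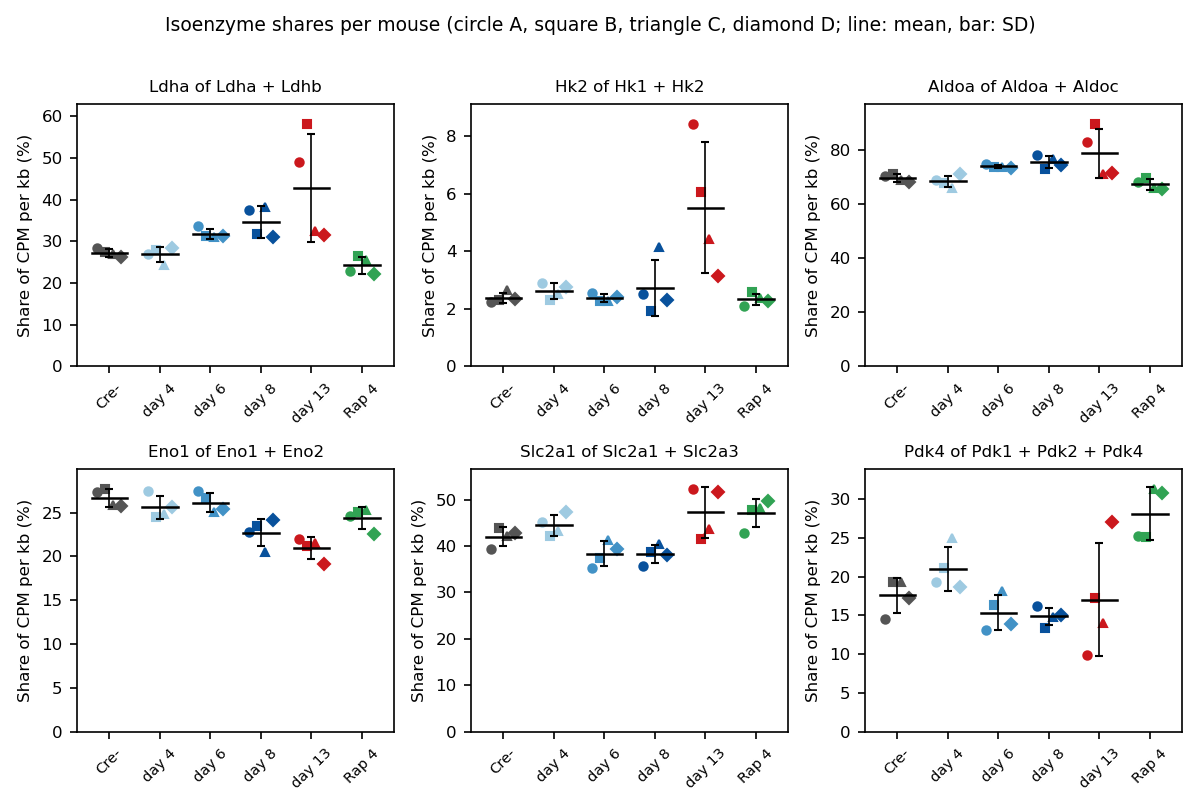
Share of the first-named gene in its isoenzyme set per mouse, in percent of summed CPM per kb, on axes from 0, by group, with the mean (line) and SD (bar) of 4 mice. The Ldha and Aldoa shares are higher on day 6 and day 8 than in controls and spread on day 13, the Hk2 share reaches 8.43% in one day 13 mouse, and the Pdk4 share is highest under rapamycin on average.

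The 4 mice of day 13 were not alike. Mice A and B both lay above C and D for 16 of the 37 genes, Hk2, Hk1, Pfkfb3, Ldha, Slc16a1, Pgk1, Aldoa and Vegfa among them, and both below for 7, namely Aldoc, Ldhb, Eno2, Pdk1, Pdk2, Pdk4 and Bnip3. Over the 17993 genes with a mean of at least 1 CPM on day 13 the shares were 30.6% and 24.5%, against 43.2% and 18.9% of the 37. No label sets A and B apart from C and D, and the split was made with these values known, so the shares are a description only. The libraries of A and B were also the deepest of the group (69971957 and 126435936 counts, against 38423852 and 41101425), and the part of depth in the difference was not tested. The paper proposes that the large spread among untreated mice at the last time point may reflect unequal seizure load. It places the onset of seizures at the time point before that one. Seizures per mouse are not given in the sources used here, and their part in the later changes was not tested. With every library thinned to 28208561 counts, a setting chosen after seeing the data, 9 genes were called on day 13 against control; Aldoa, Pfkp and Pkm no longer passed the fold minimum.

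Few of these genes passed between successive time points. From day 4 to day 6, 9 did, 5 of them higher (Tpi1, Pgk1, Ldha, Hif1a and Vegfa) and 4 lower (Slc2a1, Aldoc, Pdk2 and Pdk4), against 4.14% of all genes tested in either direction. From day 6 to day 8, 0 of 37 passed in edgeR, against 0.418% of all genes tested. There 13 of the 37 had an unadjusted p under 0.05, as did 4264 of all 24871 genes tested, and 6 of the 37 passed in DESeq2. From day 8 to day 13, 0 passed in edgeR, as did 0% of all genes tested. At an unadjusted p under 0.05 stood 9 of the 37 and 3479 of all 24747 genes tested, and 4 of the 37 passed in DESeq2. The shares of all genes that passed in DESeq2 are not given here. With the spread estimated over all 24 mice, 4 were called from day 8 to day 13, Hk2, Slc2a1, Slc16a1 and Pfkfb3. The fitted values of these 4 in the 8-mouse test were 1.30 ± 0.35, 0.81 ± 0.13, 0.72 ± 0.16 and 0.52 ± 0.22. The share of all genes called with the spread over 24 mice is not given here, and the 0% above belongs to the 8-mouse test.

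Another 100 genes of neighbouring pathways were counted by list, of which 97 passed the filter on day 13. There 25 were called higher and 5 lower (median 0.10) (all genes 8.4% and 8.06%). Called higher and lower were 3 and 3 under rapamycin against control (all genes 0.372% and 1.04%), and 22 were called lower and 6 higher for rapamycin against day 13 (all genes 11.2% and 9.94%). On day 13, the 26 other HIF pathway and target genes had 9 called, each of them higher (median log2 fold change 0.24), and the 20 other glycolysis and gluconeogenesis genes 6 higher and 3 lower (median -0.03). The pyruvate dehydrogenase complex and its regulators had 3 of 10 called higher (median 0.28), glycogen genes 2 of 13 higher and 1 lower (median -0.07), and other transporters 1 of 15 higher (median 0.05), the last a share below the 8.4% of all genes. Glucose-sensing transcription factors and targets had 3 of 8 higher and 1 lower (median 0.07), and other pentose phosphate genes 1 of 6 higher (median 0.05).

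Among the genes of these lists with the largest called changes, Hmox1, heme oxygenase and a target of HIF and of oxidative stress, rose from day 6: 3.12, 3.07, 2.64 and 3.41 CPM in controls, 5.55, 4.80, 5.68 and 4.93 on day 6, 13.0, 8.38, 19.5 and 6.88 on day 8 and 37.6, 32.3, 12.9 and 16.9 on day 13 (log2 fold change ± SE 3.00 ± 0.32 on day 13). Hkdc1, a further hexokinase, was at 3.37, 4.32, 4.14 and 3.95 CPM in controls, 8.86, 7.34, 10.3 and 6.44 on day 8 and 37.6, 33.3, 8.09 and 9.91 on day 13 (1.05 ± 0.15 and 2.47 ± 0.47), above all controls on both days. The vessel-widening peptide gene Adm, the glycogen-binding Stbd1, the carbonic anhydrase Car12 and the transketolase-like Tktl1 had log2 fold changes of 2.36 ± 0.40, 2.32 ± 0.54, 1.61 ± 0.48 and 1.18 ± 0.29 on day 13, and Car12, at 33.6, 51.6, 30.4 and 31.1 CPM in controls and 126, 236, 52.6 and 41.3 on day 13, overlapped with controls. All 4 fell under rapamycin against day 13 (-2.48 ± 0.41, -2.13 ± 0.52, -2.32 ± 0.47 and -3.10 ± 0.43). Adm, Stbd1 and Tktl1 were at low levels, with means of 0.592, 0.801 and 0.255 CPM in controls. Their means were 3.07, 4.05 and 0.577 CPM on day 13 and 0.539, 0.919 and 0.0656 under rapamycin, so these fold changes rest on few reads. Hif3a, a HIF relative known to restrain HIF target genes, followed another order: 2.95, 5.24, 5.44 and 5.82 CPM in controls, 14.2, 15.0, 20.1 and 12.1 on day 4, 3.92, 2.92, 7.17 and 3.62 on day 6, 4.54, 5.48, 4.03 and 2.45 on day 8, 5.01, 8.65, 12.3 and 13.0 on day 13 and 22.1, 21.9, 25.7 and 19.7 under rapamycin. It was called on day 4 (1.66 ± 0.19), day 13 (0.98 ± 0.31) and under rapamycin (2.20 ± 0.16), and its highest means were those of day 4 and rapamycin, the groups in which Pdk4 had its 2 highest means.

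Markers of cells that could carry these genes gave the following sums. Excitatory neuron markers (7 genes) ran from 4779.8 to 5833 CPM in controls, 5106 to 5872 on day 13 and 4235 to 5413 under rapamycin, with overlap. The 5 general neuron markers, Eno2 among them (3089 to 3504 CPM in controls, 3002 to 3706 on day 13) and the 6 of inhibitory neurons (362 to 393 and 350.2 to 477) overlapped as well. Microglia markers (7 genes) were at 224 to 270.5 CPM in controls, 205 to 278 on day 13 and 168 to 190.3 under rapamycin (exact two-sided permutation p = 0.0286 against control), pericyte markers (4 genes) at 141 to 152, 142 to 182 and 116 to 128 (p = 0.0286, same exact permutation test), and markers of infiltrating myeloid cells (7 genes) at 9.999 to 14.6, 11.5 to 15.8 and 7.22 to 11.8. Red blood cell genes (5) were lower than in controls on day 4, 6 and 13 and under rapamycin (58.8 to 75.6 CPM in controls, 31.8 to 49.3 on day 13, 39.0 to 52.1 under rapamycin, exact permutation p = 0.0286 for each). Choroid plexus markers (6 genes) varied within every group, from 63.4 to 1715 CPM in controls and 48.3 to 446 on day 13. No listed marker was at 0 in a whole group, and the part of these cells in the results was not tested.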

How the data were processed

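Total RNA of 24 hippocampi was depleted of ribosomal RNA, made into stranded libraries and sequenced paired-end. Per the submitters' processing notes, the authors trimmed reads (CutAdapt 1.16.5), aligned them with STAR 2.7.2b to mm10 and counted them per GENCODE gene with featureCounts 1.6.4; the deposited values are raw counts, 1 table per mouse. Strand and multi-mapping settings are not given in the sources used here, so antisense and near-identical genes may share reads. Symbols were taken from GENCODE M21.

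Each comparison used its 8 mice in edgeR 4.0.16 (R 4.3.3; filterByExpr, TMM, quasi-likelihood F test, Benjamini-Hochberg over all genes tested); the log2 fold change of a called gene also had to pass 0.5 in size. SE is the log2 fold change divided by the root of F. DESeq2 1.42.0 and other settings were alternatives. The code was tested on simulated data. Every gene has a level per group and a fold change; values per mouse are given for the 14 genes with the largest called change, for Hif1a, Ldha, Hk1 and Gapdh and, chosen after seeing values, for others; neighbouring genes are the 8 with the largest called change, of which 1 is not reported here. The genes and lists were chosen with earlier results of these data known. Marker sums were compared by exact permutation over 70 arrangements.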

Additional observations from a re-analysis of the deposited data

Results flagged for a closer look

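In 13 of the 222 sets of 4 values (37 genes in 6 groups), 1 mouse lay far from the other 3 by Dixon's ratio (95% critical value), which is 5.86% of the sets; chance flags about 1 in 20 such sets. Among controls, Bnip3 was at 30.8 CPM in mouse D and at 26.2 to 26.8 in the other 3. On day 4, Ldha was at 108 CPM in mouse C and at 123 to 126 in the other 3, and Pdk2 was at 26.7 CPM in mouse D and at 30.1 to 30.5 in the other 3. In the same group, Slc16a3 was at 3.35 CPM in mouse D and at 3.80 to 3.86 in the other 3. On day 6, Ldhb was at 145 CPM in mouse A and at 151 to 152 in the other 3. On day 13, Pfkfb4 was at 29.3 CPM in mouse A and at 21.2 to 21.8 in the other 3, and G6pdx was at 21.8 CPM in mouse B and at 18.5 to 18.8 in the other 3. In the same group, Rpia was at 9.05 CPM in mouse D and at 10.5 to 10.6 in the other 3, and Tkt was at 156 CPM in mouse A and at 118 to 124 in the other 3. Under rapamycin, Pgk1 was at 87.8 CPM in mouse D and at 105 to 108 in the other 3, and Pgam1 was at 45.9 CPM in mouse D and at 60.4 to 63.1 in the other 3. In the same group, Ldha was at 88.5 CPM in mouse D and at 107 to 108 in the other 3, and Slc16a3 was at 4.202 CPM in mouse C and at 2.98 to 3.15 in the other 3. Rapamycin mouse D was the low one for Pgk1, Pgam1 and Ldha, and it also had the lowest share of counts on the 37 genes (0.524%).

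From day 4 to day 6 Pdk4 changed by a log2 fold change of -0.71 (edgeR, adjusted p = 0.004), the only called difference of the 37 genes between successive time points. These mice come from different series of animal numbers, so time and cohort cannot be told apart.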

How the results depend on the processing

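No called log2 fold change of the 37 genes changed sign under any alternative run. Scaling with the size factors of DESeq2, testing without a filter for low counts, the level of Xist (an RNA of female mice) as covariate, DESeq2 on the same mice and thinning to the smallest library (chosen after seeing the data) kept each count of called genes within 1.5 times, except that DESeq2 called 3 genes from day 8 to day 13 where edgeR called 0. Without a fold minimum the counts were 2 on day 4, 12 on day 6, 16 on day 8, 19 on day 13, 5 for rapamycin against control, 26 for rapamycin against day 13 and 9 from day 4 to day 6. With the spread estimated over all 24 mice, 1 gene was called on day 8 and 0 for rapamycin against control. From day 4 to day 6 the count was 0, and from day 8 to day 13 it was 4. The cause was not tested, and the shares of all genes called in that fit are not given here. Leaving out each mouse in turn gave 0 to 0 called genes on day 4 and day 6, 1 to 3 on day 8, 9 to 15 on day 13, 1 to 1 for rapamycin against control, 12 to 19 for rapamycin against day 13, 1 to 1 from day 4 to day 6, 0 to 0 from day 6 to day 8 and 0 to 1 from day 8 to day 13, and 26 to 28 genes in the F test. Of the genes with an adjusted p under 0.05, 1 of 2 on day 4, 5 of 12 on day 6, 12 of 16 on day 8, 17 of 19 on day 13, 1 of 5 for rapamycin against control and 19 of 26 against day 13 kept it in all 8 such fits. With the Xist level as covariate, 7 of the 12 genes of day 6 lost it, and with the spread over all 24 mice 11 did. The mouse letters do not pair the groups (same-letter correlations of deviations -0.121 to 0.0883, none of the pairs over 0.1). With the letter as a replicate block, 0, 0, 2, 11, 1 and 17 genes were called on day 4, 6, 8 and 13, for rapamycin against control and against day 13, then 1, 0 and 0 for the successive steps, and 29 in the F test. Counts per library were lowest for Egln3 (52 to 277).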
